A study of Homo sapiens with 6 samples.

Results

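The nuclear-encoded genes of the respiratory chain were followed in HT-1080 cells, an established line from a human fibrosarcoma, treated with an IRAK4 inhibitor, as the series names it. IRAK4 is a kinase that acts below interleukin-1 and Toll-like receptors. Treated cells had the compound coded SLV-8472-01 for 4 h at a labelled dose of 5 mM, and control cells had 0.1% DMSO for 4 h. Whether that dose was reached on the cells or belongs to a stock is not stated in the labels. The labels also give no DMSO content for treated cells. Each group had 3 libraries, described as biological replicates, and both groups share the one cell line and its culture conditions. Members were chosen by a rule on symbols, with earlier results of these data known. The rule took all rows whose name begins with NDUF, UQCR, ATP5, SDHA, SDHB, SDHC or SDHD, or with COX and a digit. This gave 117 of the 20683 rows of each count table. They hold 77 subunit genes of complexes I to V, 22 assembly factors, 6 tissue isoforms of complex IV subunits, 2 genes associated with complex V, and 10 pseudogenes, retrocopies and noncoding rows.

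The respiratory chain of the inner mitochondrial membrane passes electrons from NADH and succinate to oxygen through complexes I to IV and pumps protons, and complex V uses the proton gradient to make ATP. Most subunits are encoded in the nucleus, while a smaller set is encoded in mitochondrial DNA and is not analysed here. Assembly factors insert cofactors and join the parts of each complex without staying in it. The nuclear genes are known targets of the transcription factors NRF1, GABP and YY1, while TFAM and its partners transcribe the mitochondrial genome.

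Totals per library ran between 7644478 and 11427779 counts in treated cells and between 12003104 and 15336351 in DMSO cells. They were made by multiplex PCR of a part of each transcript, so a count compares 1 gene between libraries and not 2 genes within a library. Values below are CPM, counts scaled to a library of 1000000 with trimmed-mean (TMM) factors. They are relative to all other genes, so that fewer cells of a kind and less RNA per cell cannot be told apart. The mesenchymal marker VIM had 6015 ± 1072 CPM with the inhibitor and 5644 ± 546 CPM with DMSO (SD, n = 3 each). Of 7 tested mesenchymal markers 4 rose (57.1%), namely CD44, FN1, COL6A1 and COL6A2, where 9.92% of all genes tested rose, and the part of this in the results below was not tested. Another mesenchymal marker, THY1, had at most 1 count in any library and was not tested, and S100A4 had only 21 to 37 counts. The blood markers PTPRC and CD3E had no count and CD14 and HBB at most 2 counts in any library, and the muscle markers MYH7, MYH2, ACTA1, CKM and TNNT2 likewise at most 2, and the endothelial markers PECAM1, CDH5 and KDR at most 10. Of the epithelial markers, CDH1 had no count, while the keratin genes KRT8 and KRT18 were detected, at 170 and 97.1 CPM with the inhibitor and 156 and 107 CPM with DMSO. For IRAK4 mRNA, treated libraries held 9, 11 and 10 counts and DMSO libraries 7, 16 and 11 (edgeR adjusted p = 0.495). An inhibitor of the kinase need not change that mRNA. In a principal component plot of all tested genes, inhibitor replicate 3, which also had the lowest total, stood at -23.6 on the second component and the other inhibitor libraries at 13.2 and 9.97.

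Most respiratory chain mRNAs differed little between the groups. Of the 117 rows, 104 passed the filter on low counts. Among these, 8 rose and 3 fell, at an adjusted p under 0.05 in edgeR's quasi-likelihood test. This is 10.6% of them, where 20.2% of all 11391 genes tested were called. By direction, 7.69% rose and 2.88% fell, against 9.92% and 10.3% of all genes tested. This balance depended on the scaling: with library totals in place of TMM factors 5 members rose and 11 fell, and over all genes 831 rose and 1714 fell. With each library left out in turn, 4 to 10 members rose and 0 to 4 fell, with 4 rises without DMSO replicate 2 or 3, no fall without DMSO replicate 2, and the most of both without inhibitor replicate 3. At an unadjusted p under 0.05, 12 members were higher and 12 lower, where 16.3% of all genes tested were higher and 17% lower. The median log2 fold change was -0.03 over the tested members and 0.00 over all genes tested, and the median size of the change, without sign, was 0.15 and 0.21. The share was also lower among the better measured genes: with a minimum mean level of 10 CPM, 7 of 90 members (7.78%) and 22.5% of all 7952 genes were called. The groups did not overlap in CPM for 29 of the 104 members, with the inhibitor above in 16 and below in 13, and for 36.3% of all genes tested.

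The precision of these values limits what small differences can be seen. The 95% interval of the log2 fold change lay within -0.5 to 0.5, a fold of 0.707 to 1.41, for 77 of 104 tested members (74%), and for 45.8% of all genes tested. More of all genes had low counts, with 3439 of 11391 under 10 CPM against 14 of the 104 members. At 10 CPM or more, the interval lay within -0.5 to 0.5 for 84.4% of members and 61.8% of all genes. For 98 of the 104 members the interval lay within a 2-fold change either way. Among the 77 subunit genes, the interval lay within -0.5 to 0.5 for 62. A gene that was not called may thus still have changed by up to its interval.

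**Figure D1:**
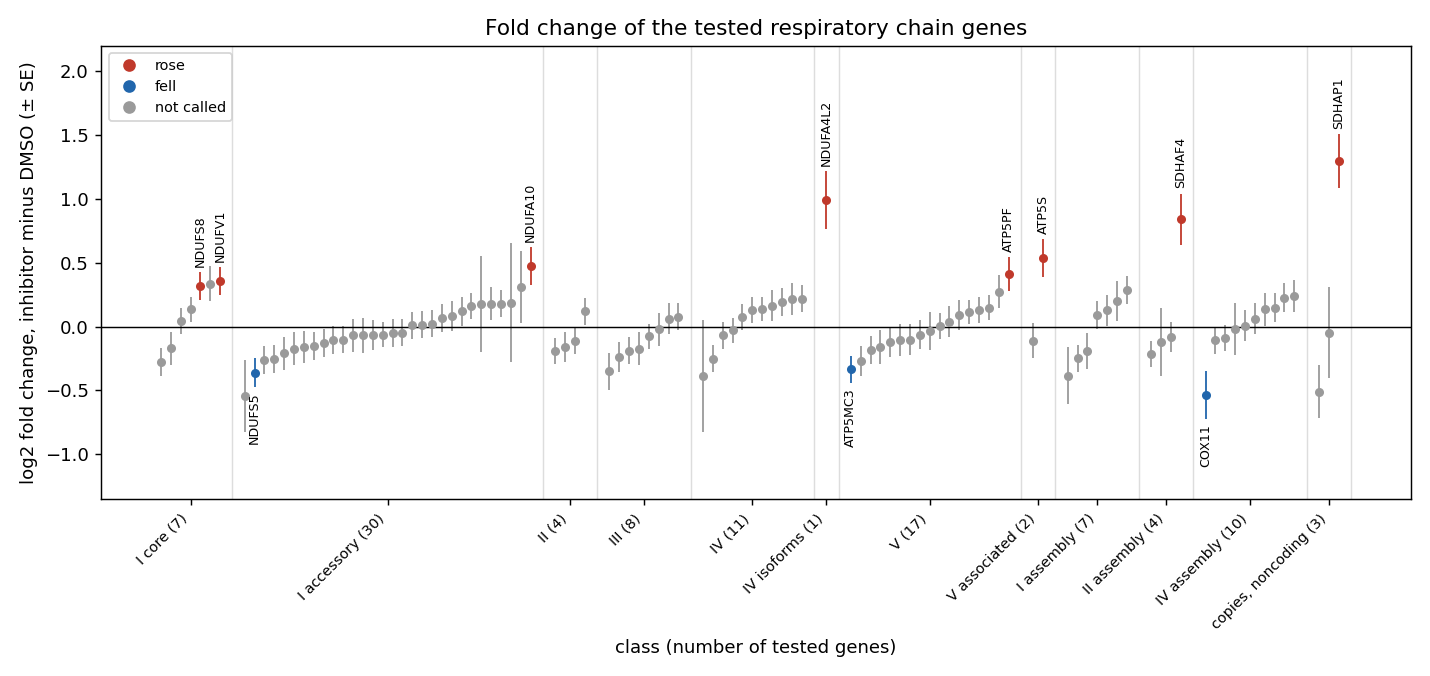
Log2 fold change, inhibitor minus DMSO, of the 104 tested rows by class, with bars of 1 SE and n = 3 libraries per group. Of the rows, 93 were not called (grey), and NDUFA4L2, SDHAF4 and the pseudogene SDHAP1 had the largest rises.

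The summed CPM of all 117 rows were 13270, 14830 and 13940 with the inhibitor and 13810, 13600 and 13920 with DMSO. These sums overlapped, and their mean ratio was 1.02. By complex, the ratio of the mean sums, inhibitor over DMSO, was 1.08 for complex I core subunits, 0.996 for complex I accessory subunits, 0.929 for complex II, 0.983 for complex III, 1.08 for complex IV and 0.987 for complex V. Each sum weighs the rows with most counts. Inhibitor replicate 1 was the lowest of the 6 libraries for the complex I accessory subunits and for complex III, with 2654 and 938 CPM. The groups did not overlap for complex IV, at 2601, 2857 and 2663 CPM with the inhibitor and 2558, 2491 and 2452 CPM with DMSO. Nor did they for the core of complex I, at 811, 881 and 870 CPM with the inhibitor and 795, 778 and 793 CPM with DMSO. Both separations depend on the TMM factors, since without them inhibitor replicate 1 lies below DMSO replicate 1 in both sums. Of all single genes tested, 36.3% did not overlap.

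**Figure D2:**
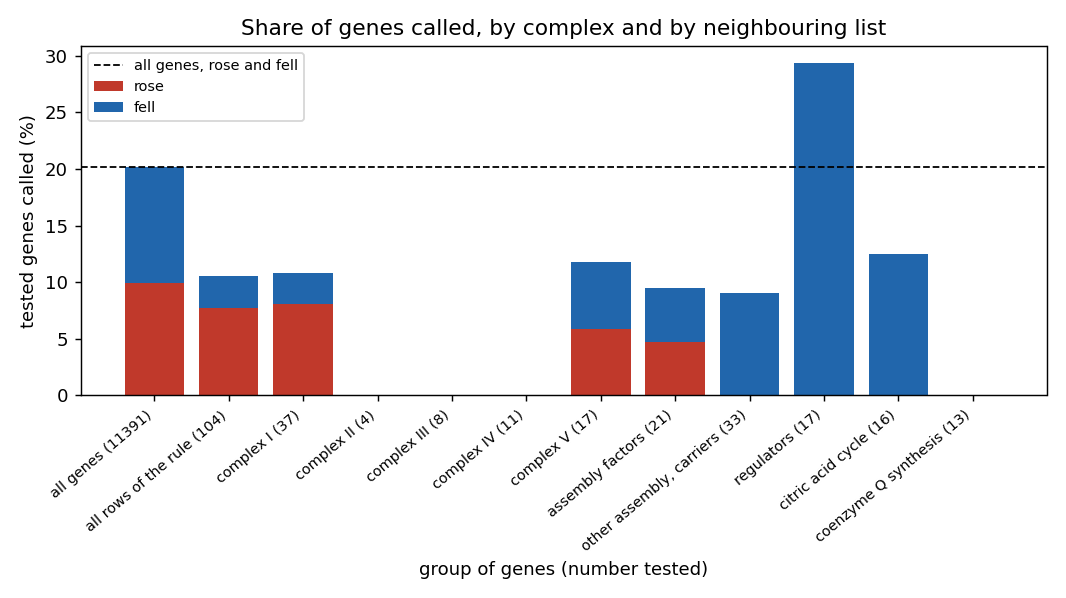
Share of tested genes that rose (red) or fell (blue) with the inhibitor, by complex and by list of neighbouring genes, with the number tested in parentheses. The dashed line marks the 20.2% called among all genes. Complexes II, III and IV had no called gene, and the regulators had 5 of 17, all lower.

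Complex I takes electrons from NADH. Of its 7 nuclear-encoded core subunits, which carry the flavin and the iron-sulfur clusters, 2 rose and 0 fell, with a median log2 fold change of 0.14 (0.11 to 0.16 with each library left out in turn). The 2 rises were 28.6% of this small class, where 9.92% of all genes tested rose and 10.3% fell. At an unadjusted p under 0.05 there were 3 upward and 1 downward, where 16.3% and 17% of all genes tested were. DESeq2 called the same 2 genes up and none down. With library totals as the scaling, neither rise was called and 1 core subunit, NDUFS1, fell. NDUFV1, the subunit that binds NADH and flavin mononucleotide, had 108, 124 and 138 CPM with the inhibitor and 94.0, 106 and 88.5 CPM with DMSO. The groups did not overlap, although the lowest inhibitor library was close to the highest DMSO library (log2 fold change 0.36 ± 0.11, SE, adjusted p = 0.0269 by edgeR). NDUFS8, an iron-sulfur subunit near the quinone site, had 99.7, 90.3 and 84.1 CPM with the inhibitor and 77.4, 68.5 and 74.4 CPM with DMSO, again without overlap (0.32 ± 0.11, adjusted p = 0.0379). Other core subunits were NDUFS7 (0.34 ± 0.13), NDUFS3 (0.04 ± 0.10), NDUFV2 (-0.17 ± 0.13) and NDUFS1 (-0.28 ± 0.11), none of them called. The NDUFV1 call was lost in 5 of 13 alternatives, namely library totals as the scaling and the removal of inhibitor replicate 2, inhibitor replicate 3, DMSO replicate 1 or DMSO replicate 3 (adjusted p up to 0.118). The NDUFS8 call was lost in 8 of 13, among them the removal of each library except inhibitor replicate 3 (adjusted p up to 0.178). Without inhibitor replicate 3, NDUFS7 was called (0.42, adjusted p = 0.0325).

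The accessory subunits surround that core. Of 30 tested, 1 rose and 1 fell, which is 3.33% each, where 9.92% of all genes tested rose and 10.3% fell. The median log2 fold change was -0.06. NDUFA10, a subunit of the membrane arm, had 85.5, 88.3 and 58.1 CPM with the inhibitor and 70.0, 51.2 and 46.0 CPM with DMSO. Its groups overlapped, since inhibitor replicate 3 lay below DMSO replicate 1 (0.47 ± 0.15, adjusted p = 0.0289). NDUFS5, on the intermembrane side of the membrane arm, had 42.5, 52.9 and 51.8 CPM with the inhibitor and 61.6, 66.4 and 60.8 CPM with DMSO. Every inhibitor library was below every DMSO library (-0.36 ± 0.11, adjusted p = 0.0263). The NDUFA10 call was lost without inhibitor replicate 1 or 2 or without DMSO replicate 2 or 3, and that of NDUFS5 without inhibitor replicate 1, without DMSO replicate 2 and after thinning all libraries to an equal total. The remaining 28 ranged from -0.54 for NDUFB6, with 12 to 53 counts per library, to 0.31 for NDUFB3, with 21 to 46. These rows and NDUFC1 and NDUFC2, with 5 to 18 counts, were too sparse for a narrow interval, although each protein is a regular part of the complex.

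Complex II is succinate dehydrogenase, shared with the citric acid cycle, and all 4 of its subunits are nuclear. None was called, none had an unadjusted p under 0.05, and DESeq2 called none. Among all genes tested, 20.2% were called in edgeR, and 16.3% were higher and 17% lower at an unadjusted p under 0.05. With only 4 genes, the lack of calls does not set complex II apart from all genes. SDHA, the flavoprotein that oxidises succinate, had 89.96, 90.1 and 87.96 CPM with the inhibitor and 106, 105 and 95.4 CPM with DMSO. The groups did not overlap, but the difference was small (-0.19 ± 0.10, adjusted p = 0.187). The membrane anchor SDHD had 97.1, 84.9 and 72.6 CPM with the inhibitor and 101, 97.3 and 86.7 CPM with DMSO, with overlap (-0.16 ± 0.11, adjusted p = 0.35). The iron-sulfur subunit SDHB was at 64.5 ± 3.65 CPM with the inhibitor and 59.4 ± 5.28 CPM with DMSO (SD, n = 3 each), and the second anchor SDHC at 92.1 ± 7.53 CPM with the inhibitor and 99.5 ± 2.16 CPM with DMSO. For all 4 the 95% interval lay between -0.40 and 0.34.

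SDHAF4, the assembly factor that binds SDHA before it joins SDHB, rose. It had 6.09, 6.09 and 5.76 CPM with the inhibitor and 3.24, 3.23 and 3.57 CPM with DMSO, from 43 to 68 counts per library. The groups stood well apart (0.84 ± 0.20, adjusted p = 0.00475), and the call was kept in each of 12 alternatives in which the gene was tested. Per 100 counts of SDHA there were 6.69 ± 0.127 counts of SDHAF4 with the inhibitor and 3.29 ± 0.39 with DMSO (SD, n = 3 each). An exact two-sided permutation test of that ratio gave p = 0.1, the smallest that 3 against 3 allows (0.133 adjusted over the 4 ratios compared). In each of the 4 ratios the first gene was called in these same libraries, so the ratios are not separate support for the calls. The other complex II factors were not called, at -0.21 ± 0.10 for SDHAF2, which attaches the flavin to SDHA, -0.08 ± 0.12 for SDHAF3 and -0.12 ± 0.27 for SDHAF1.

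Of the rows named for SDHA pseudogenes, 1 was called. SDHAP1, singled out after its value was seen, rests on 63 to 84 counts per inhibitor library and 35 to 54 per DMSO library. It had 7.53, 6.85 and 8.57 CPM with the inhibitor and 3.44, 2.26 and 3.65 CPM with DMSO, without overlap (1.30 ± 0.21, adjusted p = 0.000156). It was the largest rise of any member and was called in each of 12 alternatives. Per 100 counts of SDHA, SDHAP1 had 8.57 ± 1.09 counts with the inhibitor and 3.07 ± 0.852 with DMSO (SD, n = 3 each). The exact two-sided permutation p of this ratio was 0.1 (0.133 adjusted). SDHAP2 was lower, at 4.47 ± 0.597 CPM with the inhibitor and 6.31 ± 1.32 CPM with DMSO (-0.51 ± 0.21, adjusted p = 0.0883), and SDHAP3 had 1 count in all. In GENCODE v29 transcripts, 7.03% of the stretches of 50 bases in SDHAP1 transcripts also occur in SDHA transcripts, and 36% occur in SDHAP2. The sources used here do not say how reads of these copies were divided, so the values of the copies are uncertain.

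The promoters of SDHAF4 and SDHA are shown because the first encodes a factor that assembles the product of the second, and only the first was called. The bases are the 250 before the start in RefSeq, build GRCh38.p14, and capitals mark matches to the NRF1 motif.
SDHAF4 (chr6:70566680-70566929, plus strand): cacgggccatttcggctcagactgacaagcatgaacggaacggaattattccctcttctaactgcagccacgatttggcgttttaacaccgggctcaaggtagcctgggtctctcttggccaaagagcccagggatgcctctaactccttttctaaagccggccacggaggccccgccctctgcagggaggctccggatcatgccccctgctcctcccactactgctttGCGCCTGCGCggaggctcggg
SDHA (chr5:218070-218319, plus strand): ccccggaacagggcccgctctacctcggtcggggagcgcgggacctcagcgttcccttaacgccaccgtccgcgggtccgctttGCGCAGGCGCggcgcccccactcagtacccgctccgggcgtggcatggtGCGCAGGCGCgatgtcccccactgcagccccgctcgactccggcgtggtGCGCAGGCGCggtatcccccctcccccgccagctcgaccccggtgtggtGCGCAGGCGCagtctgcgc
The motif, GCGCA followed by any base and then GCGC, was searched on both strands of 300 bases, the last 50 of which lie after the start and are not printed. SDHA has 4 matches, which begin 166, 117, 68 and 19 bases before the start, and SDHAF4 has 1 match on the minus strand at 21 bases before it.

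Complex III passes electrons from ubiquinol to cytochrome c. Of its 8 subunit genes none was called, 1 had an unadjusted p under 0.05, downward, and DESeq2 called none. Of all genes tested, 20.2% were called. The median log2 fold change in complex III was -0.13 and 6 of 8 were negative, where 5651 of all 11391 genes tested were. UQCR10, a small subunit, had 13.1, 16.1 and 12.3 CPM with the inhibitor and 17.0, 19.6 and 16.4 CPM with DMSO. Its groups did not overlap, by a narrow gap (-0.35 ± 0.14, adjusted p = 0.0926), and it was called with library totals as the scaling (adjusted p = 0.0407). UQCRB, a matrix-side subunit, had 37.5, 46.9 and 49.8 CPM with the inhibitor and 53.0, 51.3 and 53.7 CPM with DMSO, without overlap and without a call (-0.24 ± 0.12, adjusted p = 0.154). The core proteins UQCRC1 (-0.02 ± 0.13) and UQCRC2 (-0.19 ± 0.11) and the Rieske iron-sulfur protein UQCRFS1 (-0.08 ± 0.10) were not called.

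Complex IV, cytochrome c oxidase, reduces oxygen to water. Its 11 subunits of general expression, here with NDUFA4, which is named for complex I but is found in complex IV, had no call, with 1 upward and 1 downward at an unadjusted p under 0.05 and none by DESeq2. Among all genes tested 20.2% were called. The median log2 fold change of the 11 subunits was 0.13, and 7 of 11 were positive, where 5739 of all 11391 genes tested were. COX6B1, on the intermembrane side, had 468, 538 and 577 CPM with the inhibitor and 493, 431 and 435 CPM with DMSO, with overlap (0.22 ± 0.10, adjusted p = 0.145). COX5A, on the matrix side, had 60.4, 60.9 and 63.3 CPM with the inhibitor and 69.7, 74.8 and 75.1 CPM with DMSO. These groups did not overlap (-0.25 ± 0.10, adjusted p = 0.0906), and COX5A was called with library totals as the scaling (adjusted p = 0.0317). COX4I1 was at 401 ± 75.2 CPM with the inhibitor and 345 ± 45.5 CPM with DMSO (adjusted p = 0.231). COX6A1 was at 614 ± 21.5 CPM with the inhibitor and 557 ± 24.9 CPM with DMSO (adjusted p = 0.33). COX4I1 was called without inhibitor replicate 3 (0.35, adjusted p = 0.0389). COX7A2, the isoform of general expression, had only 4 to 20 counts per library.

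The isoforms of complex IV known from muscle, lung or testis were at or near 0. COX4I2, COX6A2 and COX7B2 had no count in any library, and 3 counts, the most that such a 0 allows by counting error alone, equal 0.196 to 0.392 CPM in the 6 libraries. COX7A1 had 1 count in all and COX6B2 from 1 to 11 per library. NDUFA4L2 was the exception. This gene is a close relative of NDUFA4 and is known as a target of the hypoxia factor HIF1. Its values rest on 50 to 103 counts per inhibitor library and 30 to 78 per DMSO library. It had 9.23, 6.63 and 6.69 CPM with the inhibitor and 4.96, 3.81 and 2.49 CPM with DMSO. Every inhibitor library was above every DMSO library (0.99 ± 0.23, adjusted p = 0.0034), and the call was kept in each of 12 alternatives. NDUFA4 itself had 132, 192 and 143 CPM with the inhibitor and 135, 146 and 136 CPM with DMSO, with overlap (0.16 ± 0.12, adjusted p = 0.369). Per 100 counts of NDUFA4 there were 7.02, 3.45 and 4.68 counts of NDUFA4L2 with the inhibitor and 3.68, 2.6 and 1.83 with DMSO. That ratio overlapped between the groups (exact two-sided permutation p = 0.2, also adjusted).

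The promoters of this pair, named COXFA4L2 and COXFA4 in RefSeq, are shown because only the first was called. They hold no capitals, since none of the letter patterns searched for NRF1, ETS, YY1, HRE or CARE was found in either window.
NDUFA4L2 (chr12:57240763-57241012, minus strand): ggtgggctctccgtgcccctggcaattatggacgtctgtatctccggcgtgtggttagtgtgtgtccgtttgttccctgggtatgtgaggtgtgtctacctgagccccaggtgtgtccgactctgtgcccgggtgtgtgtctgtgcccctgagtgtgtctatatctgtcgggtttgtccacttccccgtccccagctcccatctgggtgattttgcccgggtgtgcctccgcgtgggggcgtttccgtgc
NDUFA4 (chr7:10940154-10940403, minus strand): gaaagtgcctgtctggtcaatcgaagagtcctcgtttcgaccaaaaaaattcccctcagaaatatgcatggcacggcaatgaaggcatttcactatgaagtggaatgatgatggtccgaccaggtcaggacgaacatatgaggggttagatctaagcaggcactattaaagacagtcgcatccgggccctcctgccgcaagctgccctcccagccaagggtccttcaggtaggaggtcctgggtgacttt
The hypoxia element was searched as ACGTG alone, which is in 21.6% of all 27305 promoters of that length, and CARE, the element of C/EBP and ATF factors, as TGATGNAA, in 3.67%. The letters GCGTG, which differ in the first base and were not searched, do occur in the printed NDUFA4L2 bases. This search therefore cannot decide whether that promoter holds a hypoxia element. The transcripts of the pair share no stretch of 50 bases.

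**Figure D3:**
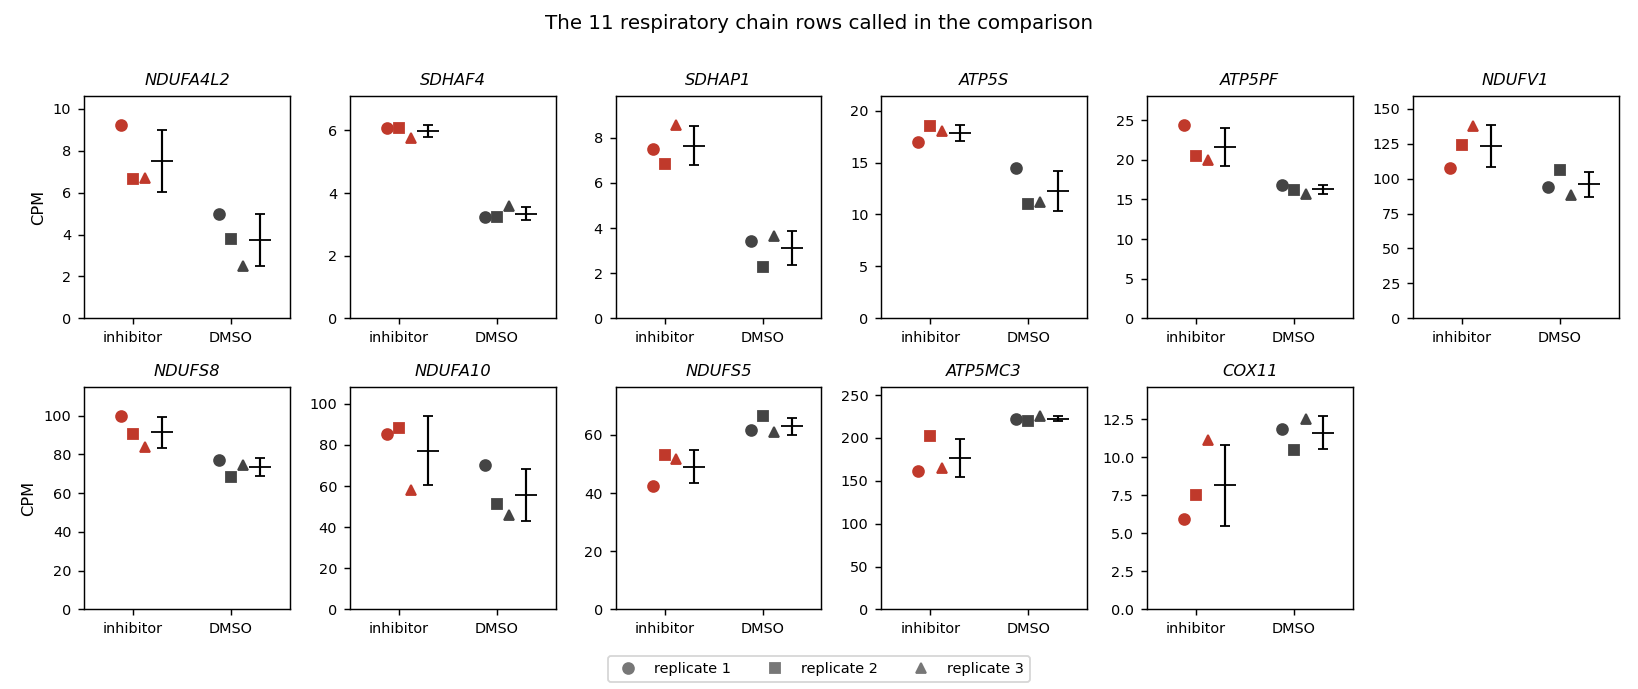
CPM of each library for the 11 called rows, with inhibitor libraries in red on the left, DMSO libraries in grey on the right, and mean ± SD beside them (n = 3 each). The groups overlap for NDUFA10 and COX11 and lie apart for the other 9. These rows are shown because they were called, and 36.3% of all genes tested did not overlap.

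Complex V is the ATP synthase. Of its 17 subunit genes, 1 rose and 1 fell, with a median log2 fold change of -0.03 (-0.15 to 0.02 with each library left out). These calls were 5.88% each way, where 9.92% of all genes tested rose and 10.3% fell. The catalytic head, F1, is made of the products of ATP5F1A to ATP5F1E. ATP5F1B, the catalytic beta subunit, had 813, 866 and 582 CPM with the inhibitor and 854, 791 and 816 CPM with DMSO (-0.12 ± 0.12, adjusted p = 0.513). ATP5F1C had 245, 240 and 152 CPM with the inhibitor and 242, 229 and 242 CPM with DMSO. ATP5F1D had 232, 215 and 147 CPM with the inhibitor and 165, 156 and 172 CPM with DMSO. In these genes and in ATP5F1E inhibitor replicate 3 was the lowest of the 6 libraries, and ATP5F1A was lowest in inhibitor replicate 1. Without inhibitor replicate 3 the log2 fold change of ATP5F1B was 0.03, that of ATP5F1C 0.02 and that of ATP5F1D 0.45, the last of which was then called (adjusted p = 0.00424). SUCLG1 of the citric acid cycle was likewise lowest there, with 21.7 CPM in inhibitor replicate 3.

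The rotor ring of complex V is made of the c subunit, whose mature form is encoded identically by ATP5MC1, ATP5MC2 and ATP5MC3. ATP5MC3 had 162, 203 and 166 CPM with the inhibitor and 223, 220 and 225 CPM with DMSO. Its groups did not overlap (-0.33 ± 0.11, adjusted p = 0.0281), but the call was lost without inhibitor replicate 1 or 3 or any single DMSO library (adjusted p up to 0.107). ATP5MC2 had 414, 455 and 423 CPM with the inhibitor and 397, 375 and 393 CPM with DMSO, all higher with the inhibitor but without a call (0.15 ± 0.10, adjusted p = 0.295). ATP5MC1 had 55.5, 63.5 and 43.8 CPM with the inhibitor and 61.7, 57.8 and 55.7 CPM with DMSO, with overlap (-0.10 ± 0.12, adjusted p = 0.596). Per 100 counts of ATP5MC2 there were 39, 44.6 and 39.1 counts of ATP5MC3 with the inhibitor and 56, 58.7 and 57.3 with DMSO. The ratio, which no scaling between libraries changes, did not overlap (exact two-sided permutation p = 0.1, the smallest possible, 0.133 adjusted). Since ATP5MC3 was already called in these libraries, the ratio is not separate support for its call. The transcripts of these 3 genes share no stretch of 50 bases, so that reads of that length separate them.

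**Figure D4:**
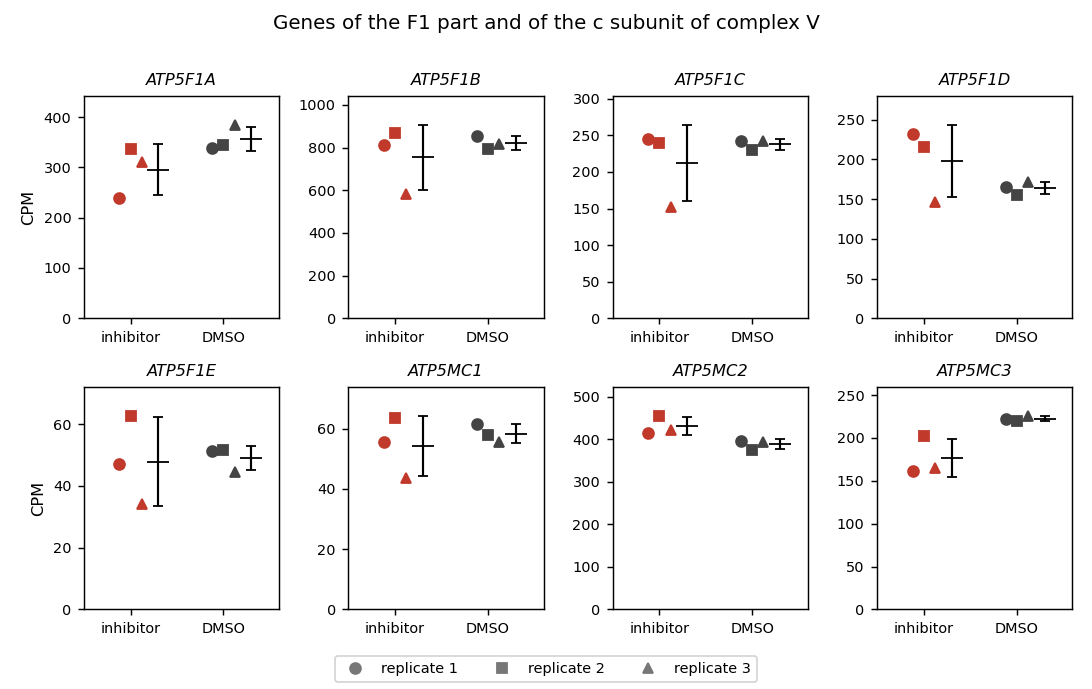
CPM of each library for the genes of the F1 part and of the c subunit of complex V, inhibitor on the left and DMSO on the right, with mean ± SD (n = 3 each). Inhibitor replicate 3 (triangle) is lowest for ATP5F1B to ATP5F1E and ATP5MC1, and ATP5MC3 is lower in all 3 inhibitor libraries.

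ATP5PF, coupling factor 6 of the peripheral stalk, was the gene of complex V that rose. It had 24.4, 20.4 and 19.95 CPM with the inhibitor and 16.9, 16.2 and 15.7 CPM with DMSO, without overlap (0.41 ± 0.13, adjusted p = 0.0289). The call was lost in 6 of 13 alternatives, namely DESeq2, library totals as the scaling, and the removal of inhibitor replicate 1 or of any single DMSO library. The other stalk genes were ATP5PB (-0.11 ± 0.12), ATP5PD (0.11 ± 0.10) and ATP5PO (0.04 ± 0.12), none of them called. ATP5S, an ATP synthase coupling factor named here after its value was seen, had 17.0, 18.5 and 18.1 CPM with the inhibitor and 14.5, 11.03 and 11.2 CPM with DMSO, without overlap (0.54 ± 0.15, adjusted p = 0.0116), a call lost without DMSO replicate 2 or 3. ATP5IF1, the inhibitor protein of the enzyme, was not called (-0.11 ± 0.14). The promoter of ATP5PF is shown because it holds motifs of 2 of the factors, with capitals for YY1 (AAGATGGC) at 57 and ETS (CCGGAAG, the site of GABP and its relatives) at 30 bases before the start.
ATP5PF (chr21:25735055-25735304, minus strand): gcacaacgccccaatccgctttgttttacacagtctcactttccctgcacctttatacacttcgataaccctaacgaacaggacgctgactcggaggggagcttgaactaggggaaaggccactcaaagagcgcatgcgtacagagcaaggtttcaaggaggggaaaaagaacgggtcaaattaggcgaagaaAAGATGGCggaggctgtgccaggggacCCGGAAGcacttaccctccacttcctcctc

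Assembly factors had 9.52% called and the subunits of complexes I to V 7.79%, where 20.2% of all genes tested were called. The difference between these classes was not tested. Of 21 tested factors, 1 rose (SDHAF4) and 1 fell, with a median log2 fold change of 0.01. COX11, which delivers copper to complex IV, had 5.91, 7.50 and 11.1 CPM with the inhibitor and 11.9, 10.5 and 12.5 CPM with DMSO. Inhibitor replicate 3 lay within the DMSO range (-0.54 ± 0.19, adjusted p = 0.0481), and the call was lost in 7 of 12 alternatives, among them DESeq2, thinned libraries and the removal of any single library other than inhibitor replicate 3. Other copper and heme factors of complex IV were not called, at 0.24 ± 0.12 for the copper chaperone COX17, 0.23 ± 0.11 for the heme A synthase COX15 and -0.11 ± 0.10 for COX10, which makes heme O. COX17 was called without DMSO replicate 3 (0.44, adjusted p = 0.0154). The supercomplex factor COX7A2L was at 125 ± 7.43 CPM with the inhibitor and 112 ± 18.5 CPM with DMSO (adjusted p = 0.391). Of 7 tested complex I factors none was called, with 1 upward and 1 downward at an unadjusted p under 0.05 and none by DESeq2. NDUFAF3 had 155, 160 and 198 CPM with the inhibitor and 138, 132 and 149 CPM with DMSO (0.29 ± 0.11, adjusted p = 0.0663). Its partner NDUFAF4 went the other way, with 110, 129 and 137 CPM with the inhibitor and 145, 156 and 145 CPM with DMSO (-0.25 ± 0.11, adjusted p = 0.104). The groups did not overlap for either gene. NDUFAF3 was called without inhibitor replicate 1, and NDUFAF4 without inhibitor replicate 3 and with library totals as the scaling.

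The motifs of the known factors were counted over the promoters of all members, as a description without a test. RefSeq promoters were matched for 92 of the 117 rows. The NRF1 motif was in 22.8% of them, against 12.4% of the promoters of 9291 tested genes and 6.28% of all promoters. The ETS motif was in 28.3%, against 20.6% and 10.7%, and the YY1 motif in 14.1%, against 5.8% and 3.03%. The median GC content was 61.2% in the members, 65.3% in the tested genes and 58.3% in all promoters. A match is a description of letters and not evidence of binding. Only 6 of the 11 called members had a matched promoter, and none of the 3 that fell did. The medians that follow therefore leave out every member that fell. Members with the YY1 motif had a median log2 fold change of 0.05 (12 tested) and those without it -0.03 (74 tested). With the NRF1 motif it was -0.06 (20 tested) and without it 0.01 (66 tested). With the ETS motif it was 0.08 (26 tested) and without it -0.04 (60 tested). None of these differences was tested.

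Genes outside the symbol rule that serve the same pathway were followed as 4 lists of 79 tested genes in all. The lists were chosen with earlier results of these data known. Of the 79 genes, 10 fell and none rose, where 10.3% of all genes tested fell and 9.92% rose. At an unadjusted p under 0.05, 21 were lower and 4 higher, where 17% of all genes tested were lower and 16.3% higher, and DESeq2 also called 10 down and none up. The regulators of the respiratory genes and of mitochondrial DNA expression had the highest share of falls, 5 of 17. Their median log2 fold change was -0.31 (-0.34 to -0.22 with each library left out). Of these genes, 16 of 17 were negative, where 5651 of all 11391 genes tested were. With a minimum mean level of 10 CPM, 13 regulators were tested, 4 fell and the median was -0.17. PPARGC1B, a coactivator of mitochondrial biogenesis, had 7.97, 6.52 and 8.57 CPM with the inhibitor and 12.5, 12.4 and 11.3 CPM with DMSO (-0.66 ± 0.16, adjusted p = 0.00608). The transcription factor YY1 had 119, 134 and 123 CPM with the inhibitor and 167, 181 and 174 CPM with DMSO (-0.48 ± 0.10, adjusted p = 0.00187). TFAM, which packages mitochondrial DNA and starts its transcription, had 67.4, 67.1 and 57.0 CPM with the inhibitor and 88.1, 85.3 and 88.8 CPM with DMSO (-0.45 ± 0.11, adjusted p = 0.00449). For all 3 genes every inhibitor library lay below every DMSO library, and the calls were kept in each alternative in which the gene was tested.

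The other regulators that fell, named after their values were seen, were TFB2M, a transcription factor of mitochondrial DNA (-0.45 ± 0.11), and TWNK, its replicative helicase (-0.32 ± 0.11). The TWNK call was lost with the replicate block and when inhibitor replicate 1, inhibitor replicate 2, DMSO replicate 1 or DMSO replicate 2 was removed. NRF1 was at 21.4 ± 2.38 CPM with the inhibitor and 27.4 ± 4.87 CPM with DMSO (-0.36 ± 0.14, adjusted p = 0.0742). GABPA was at 47.6 ± 1.84 CPM with the inhibitor and 48.9 ± 1.24 CPM with DMSO (adjusted p = 0.835). The mitochondrial RNA polymerase POLRMT (-0.04 ± 0.12) was not called.

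**Figure D5:**
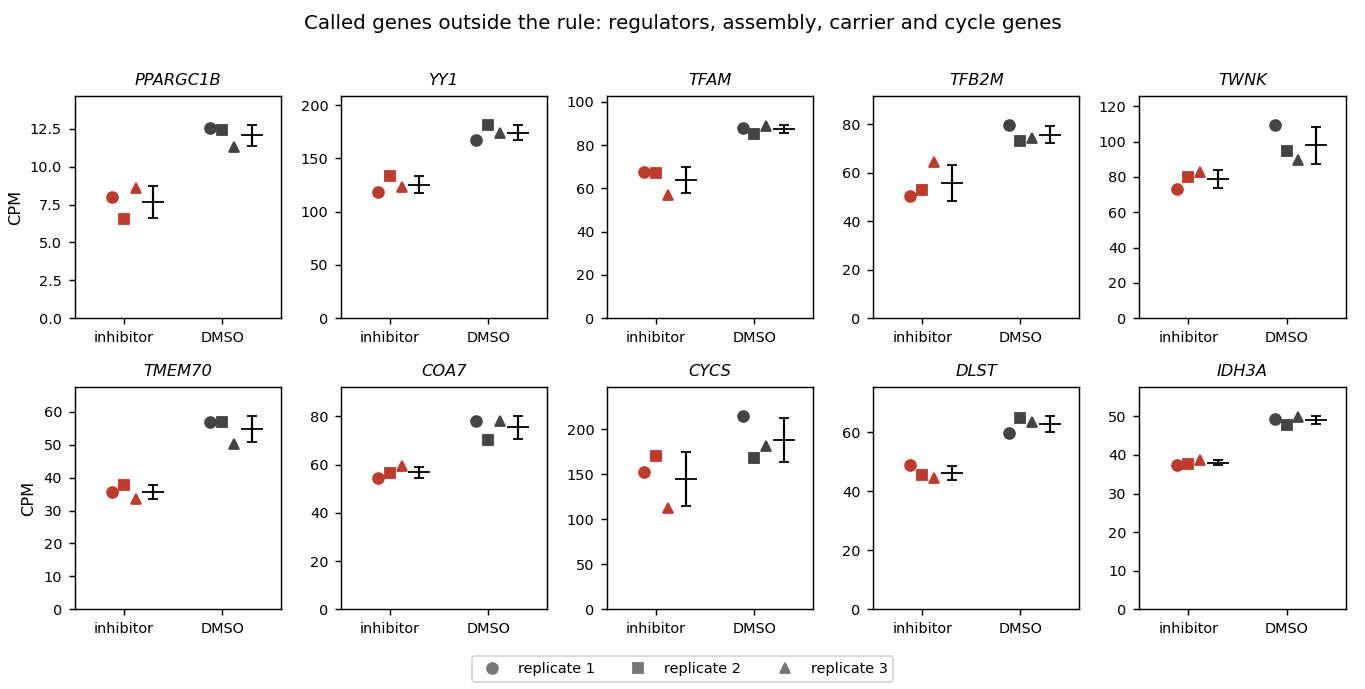
CPM of each library for the 10 called genes outside the symbol rule, inhibitor on the left and DMSO on the right, with mean ± SD (n = 3 each). All were lower with the inhibitor, and the groups overlap only for CYCS. The genes are shown because they were called, and 36.3% of all genes tested did not overlap.

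Of 33 other assembly factors, carriers and subunits, 3 fell and none rose, with 2 upward and 7 downward at an unadjusted p under 0.05. The share that fell, 9.09%, was close to the 10.3% over all genes tested. TMEM70, which helps to assemble complex V, had 35.7, 37.6 and 33.6 CPM with the inhibitor and 56.9, 57.0 and 50.2 CPM with DMSO. It was the gene with the smallest p of the 4 lists (-0.62 ± 0.11, adjusted p = 0.000437). COA7, a factor of complex IV, had 54.6, 56.4 and 59.3 CPM with the inhibitor and 78.0, 70.1 and 78.2 CPM with DMSO (-0.41 ± 0.11, adjusted p = 0.0082). CYCS, cytochrome c, was at 145 ± 29.8 CPM with the inhibitor and 188 ± 24.0 CPM with DMSO, with overlap (adjusted p = 0.0448), a call lost in 5 of 13 alternatives, 4 of them the removal of inhibitor replicate 1 or 3 or DMSO replicate 1 or 3. CYC1, the cytochrome subunit of complex III, was at 82.8 ± 1.84 CPM with the inhibitor and 81.8 ± 8.88 CPM with DMSO (adjusted p = 0.927). Of 16 citric acid cycle genes, 2 fell and none rose, with none upward and 4 downward at an unadjusted p under 0.05. The share that fell, 12.5%, was also near the 10.3% over all genes tested. DLST, of the oxoglutarate dehydrogenase complex, had 49.0, 45.3 and 44.5 CPM with the inhibitor and 59.6, 64.8 and 63.5 CPM with DMSO (-0.44 ± 0.11, adjusted p = 0.00597). IDH3A had 37.5, 37.7 and 38.7 CPM with the inhibitor and 49.2, 47.8 and 49.8 CPM with DMSO (-0.37 ± 0.11, adjusted p = 0.0176), a call lost without inhibitor replicate 2 (adjusted p = 0.0578). Of 13 genes of coenzyme Q synthesis none was called, with 2 upward and 2 downward at an unadjusted p under 0.05 and none by DESeq2.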

How the data were processed

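RNA was measured with the Ion AmpliSeq Transcriptome panel and Ion Proton sequencing, per the labels' protocols. The authors deposited raw read counts per gene symbol, a table for each library, without rows of unassigned reads. The submitters' processing notes name HTSeq, DESeq2 1.20.0 and hg19 without a role. The sources used here do not give the aligner, the annotation or the strand setting. Reads of copies, overlapping and antisense genes could therefore be split or lost. Members and lists were chosen with earlier results of these data known, and classes by complex follow textbook assignment. Replicate libraries of a group differed beyond counting noise (chi-square over degrees of freedom 9.32 to 14.7 across genes with at least 20 counts), and p-values measure the spread between them, since separate cultures are not spelled out. Same-numbered libraries of the groups did not deviate together, with r of 0.0317, -0.0166 and 0.00693, and were not treated as pairs.

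The tests used edgeR 4.0.16 in R 4.3.3, with filterByExpr, TMM factors (0.9735 to 1.047), glmQLFit and glmQLFTest without covariates, and Benjamini-Hochberg adjustment over all 11391 genes. The SE is the log2 fold change over the square root of F, and intervals use the degrees of freedom of the fit. A floor of 3 counts stands for 0. PCR reads are not independent molecules, so floors cover counting error only. In each class up to 4 called members by size of change were named, or 2 by smallest p, with the isoform sets, the SDH genes, up to 3 called genes of each list and IRAK4. Other genes are named as values of their class. Some genes of these lists are not reported here. The alternatives were DESeq2 size factors, library totals as the scaling, only genes without any count removed, a minimum of 10 CPM, a block for replicate number, the DESeq2 test (version 1.42.0), thinning to an equal total, and removal of each library. The procedure was run on simulated data as a check of the code. That check does not show how well changes of the sizes reported here are detected.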

Additional observations from a re-analysis of the deposited data

How the results depend on the processing

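NDUFA4L2, SDHAF4, SDHAP1, PPARGC1B, YY1, TFAM, TFB2M, TMEM70, COA7 and DLST kept their calls in each alternative in which they were tested. Of these, NDUFA4L2, SDHAF4, SDHAP1 and PPARGC1B had too low a level to be tested with a minimum of 10 CPM. The called members above that minimum, NDUFV1, NDUFS8, NDUFA10, NDUFS5, ATP5MC3, ATP5PF and ATP5S, each lost their call in some alternatives. With library totals as the scaling, which moved the median of all genes to -0.07 on the log2 scale, 5 members rose and 11 fell, 17 pathway neighbours fell, complexes III and IV had 1 call each, and the members' median was -0.0957. With a minimum of 10 CPM 5 members rose, 1 neighbour (COA5) rose and 0 assembly factors were called. In thinned libraries 1 member fell, complex I had 2 calls and assembly factors had 1. DESeq2 gave 1 call in complex V and 1 among assembly factors.

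The removal of each library in turn gave 4 to 10 members that rose and 0 to 4 that fell, 0 to 1 neighbours that rose, 684 to 1133 genes in all that rose and 721 to 1113 that fell. It gave 1 to 4 calls in complex I, 0 to 1 in complex IV, 0 to 2 in complex V and 1 to 4 among assembly factors. The members' median ran between -0.0385 and 0.0354. The lowest counts over all genes came without DMSO replicate 2. NDUFA4 ran between -0.0195 without inhibitor replicate 2 and 0.2718, and ATP5MC1 between -0.2298 and 0.0227 without inhibitor replicate 3, with no call. The cause of these shifts was not tested.

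With the replicate block, although the numbers do not pair the libraries, 9 members rose (NDUFS7 in addition) and 3 fell, and all 11 calls were kept. No inhibitor library correlated best with the DMSO library of its own number, although for inhibitor replicate 1 the values were close (r of 0.0317 against 0.033). Genes under 10 CPM, 14 of the 104 tested members, had too few counts for small changes to be seen.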
